A study of Homo sapiens with 9 samples.

Results

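Messenger RNA levels of 59 genes of chromosome 9 were followed across 3 human mammary epithelial cell lines. The genes are 59 of the 62666 in the deposited gene table, and were picked because chromosome 9 genes are higher in MCF10AT1 than in MCF10A. The contrast of those lines therefore chose the members, and its values are given as a description with no reading of a test. All 59 had a position on chromosome 9 in GENCODE 29 on GRCh38, 24 on the short arm (9p, below 45 Mb) and 35 on the long arm (9q).

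The study sequenced polyadenylated RNA of lines that stand for stages of breast cancer. MCF10A is an immortalised, non-tumorigenic line of mammary epithelial cells. MCF10AT1 was derived from it with an activated HRAS oncogene, and MCF10Ca1a is a malignant descendant obtained through xenografts. Each line had 3 libraries, and nothing in the labels says that they came from separate cultures, so p-values measure only the spread between these libraries. The medium held 5% horse serum for MCF10A and MCF10Ca1a and 2.5% for MCF10AT1, so for MCF10AT1 line and serum cannot be told apart. Insulin, epidermal growth factor, hydrocortisone and cholera toxin were in the medium of all 3 lines.

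Chromosome 9 carries genes of unrelated function, among them kinases (JAK2, ABL1, SYK), the immune ligand CD274, growth inhibitors (TSC1, PTCH1) and chaperones. In cultured lines, gain or loss of a chromosome or an arm tends to shift the transcripts of many of its genes together, while single genes can depart from their neighbours through their own regulation. DNA copy number was not measured in the files used here.

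Library totals were 62.9 to 69.51 M counts for MCF10A and MCF10AT1, and 32.93 to 35.24 M for MCF10Ca1a. The epithelial markers EPCAM, KRT5, KRT8, KRT18 and CDH1 were all present, at 37.2 TPM (a level scaled for transcript length and library size) or more in the mean of every line. Of the 3 markers of other cells, PTPRC was at or below 0.0377 TPM in every library and COL1A1 at 0.867 to 3.59 TPM, while PECAM1, an endothelial and leukocyte adhesion gene, reached 15.6 to 20.8 TPM in MCF10Ca1a against 0.554 to 1.21 TPM in the other lines. Replicate 1 of MCF10A stood apart from the other MCF10A libraries: chi-square per degree of freedom over genes was 75.5 against replicate 3 and 32.4 against replicate 2, while replicates 2 and 3 gave 11.7. In MCF10AT1 replicate 3 gave 14.8 and 17.2 against the others, which gave 3.6 between them, and the MCF10Ca1a pairs gave 2.46 to 4.34. Replicate 1 of MCF10A was the highest library of its line for 42 of the 59 members and replicate 3 the lowest for 42. MCF10AT1 replicate 3 was the lowest of its line for 34, and MCF10Ca1a replicate 3 the highest of its line for 34. Without MCF10A replicate 1, 52 members were called in each comparison with MCF10A, against 46 (MCF10AT1) and 50 (MCF10Ca1a) with it.

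Across the libraries, chromosome 9 took 3.22 to 3.25% of all counts in MCF10A, 4.41 to 4.45% in MCF10AT1 and 4.37 to 4.39% in MCF10Ca1a. The 59 members alone took 0.577 to 0.65%, 0.777 to 0.797% and 0.98 to 0.993%. Without HSPA5 and B4GALT1, left out after their values were seen, the other members took 0.484 to 0.528%, 0.681 to 0.693% and 0.7 to 0.705%. Neither share overlapped between MCF10A and the derived lines.

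All 59 members passed the filter on low counts, PLIN2 only through its MCF10Ca1a libraries. In MCF10AT1 against MCF10A, 44 were called higher, 2 lower (RECK and ALAD) and 13 were not called, by edgeR's quasi-likelihood test at an adjusted p of 0.05. Over all 17910 genes tested, 61.6% were called: 29.8% higher and 31.8% lower. The members' median log2 change was 0.48 (1.4-fold), beside -0.03 over the genes off chromosome 9, and 0.29 on log2(TPM + 1). Since this contrast chose the members, nothing further is read from those counts.

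The contrast that the choice did not use is MCF10Ca1a against MCF10A, although it shares the MCF10A libraries with the one above. Here 39 members rose, 11 fell and 9 did not pass the test, where 80.9% of all genes tested were called, 39.0% higher and 41.9% lower. The median log2 change was 0.46, beside -0.07 for genes off chromosome 9, and 0.52 without MCF10A replicate 1. Against MCF10AT1, whose libraries the choice did use, MCF10Ca1a had 24 members called higher and 23 lower, beside 38.0% and 40.3% of all genes tested (78.4% in all), and a median of 0.07. The median was -0.02 with no filter on low counts, 0.12 with DESeq2 and 0.32 to 0.36 on the TPM scale, so its direction and size depend on the setting. On log2(TPM + 1) with limma the split was 35 members higher and 13 lower, but all genes moved with that scale: 45.8% were called higher and 28.5% lower, and the median of all genes was 0.13 in place of -0.04.

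By arm, the 24 members on 9p had a median log2 change of 0.51 in MCF10AT1 and 0.58 in MCF10Ca1a, each against MCF10A. The 35 on 9q had 0.43 and 0.28. In MCF10Ca1a 17 members of 9p rose and 3 fell, and 22 members of 9q rose and 8 fell, beside 39.0% and 41.9% of all genes. Of the other genes tested, 53.0% rose on 9p and 54.0% on 9q, with medians of 0.50 and 0.26. The difference between the arms was not tested.

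**Figure D1:**
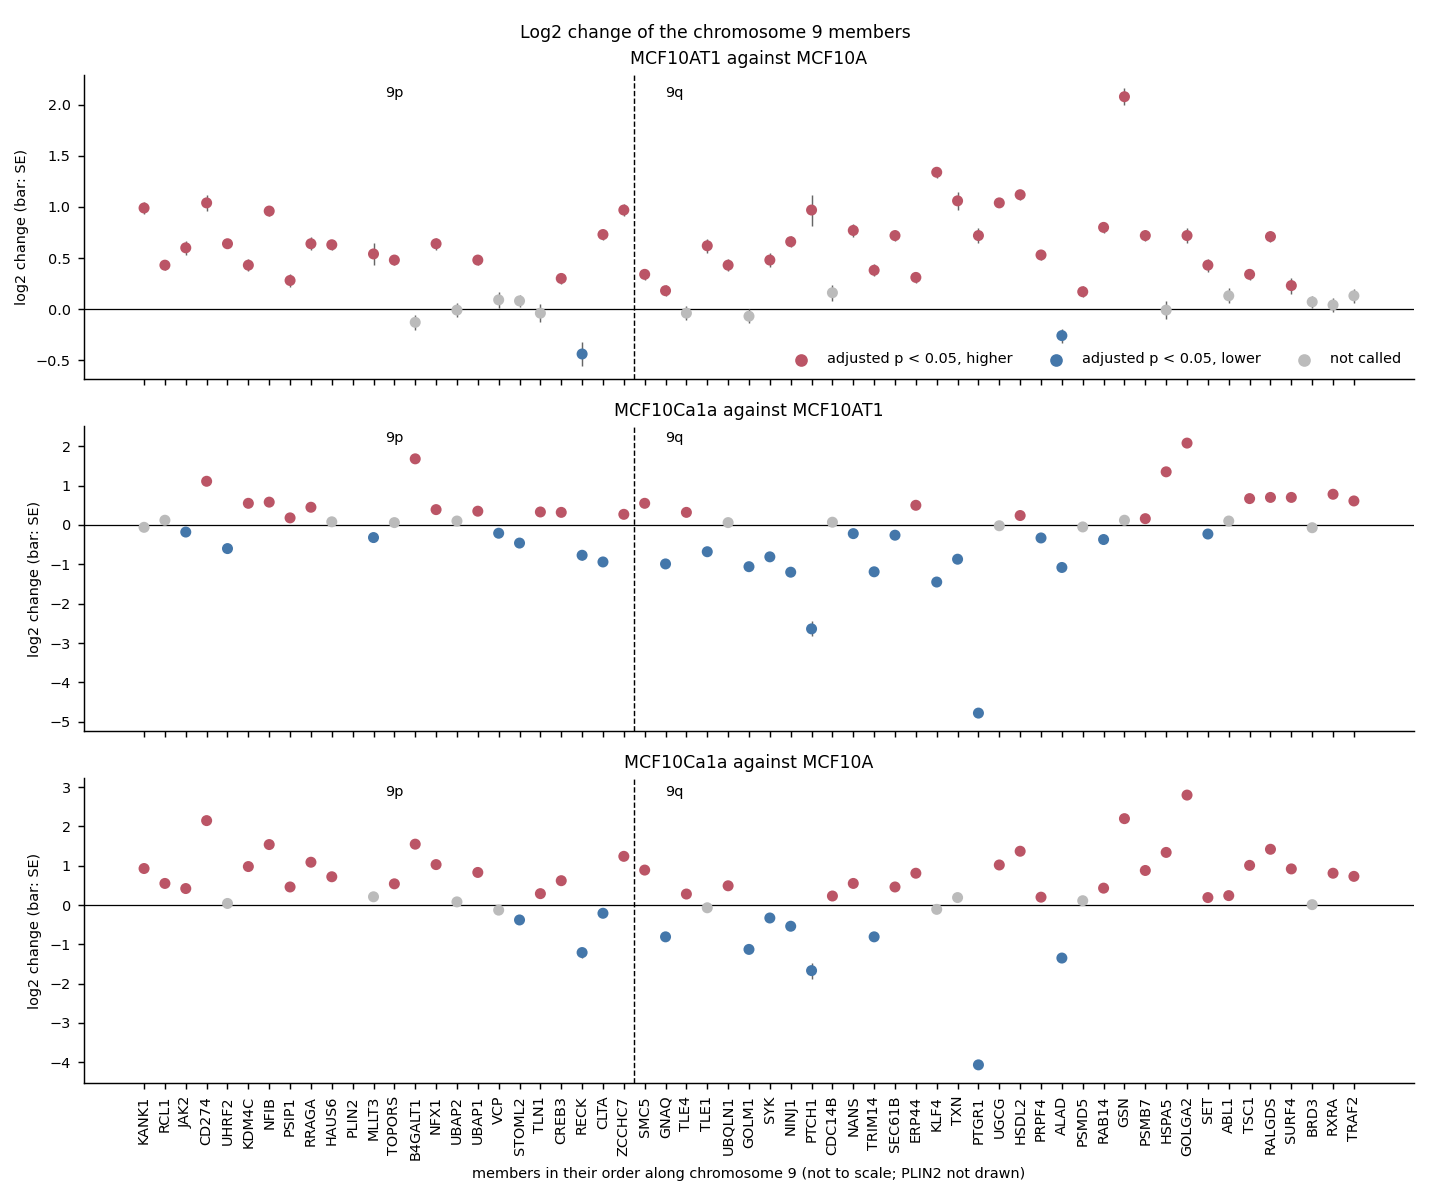
Log2 change (points, with SE bars) of the members in their order along chromosome 9, with the arms parted by the dashed line, for the 3 comparisons; red and blue mark an adjusted p under 0.05. In the top panel 44 members are called higher, beside 29.8% of all genes tested. In the middle panel 24 are called higher and 23 lower, beside 38.0% and 40.3%. PLIN2, whose counts are near the floor, is not drawn but is in these counts.

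The remaining genes of the chromosome give the surroundings of the members. They are no independent check of the contrast of MCF10AT1 with MCF10A, which chose chromosome 9 as a whole, so its counts and the rank of the chromosome in it are a description. Of 635 tested, 413 were higher (65.0%) and 53 lower (8.35%) in MCF10AT1 against MCF10A, beside 29.8% and 31.8% of all genes tested. Their median log2 change was 0.48, equal to that of the members. In MCF10Ca1a against MCF10A, 341 rose (53.7%) and 189 fell (29.8%), beside 39.0% and 41.9% of all genes, with a median of 0.32. In MCF10AT1 the median over all chromosome 9 genes was 0.48, the highest of the 23 chromosomes compared, and chromosome 19 was next at 0.20. In MCF10Ca1a against MCF10A chromosome 9 stood at 0.33, below chromosome 20 at 0.39.

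**Figure D2:**
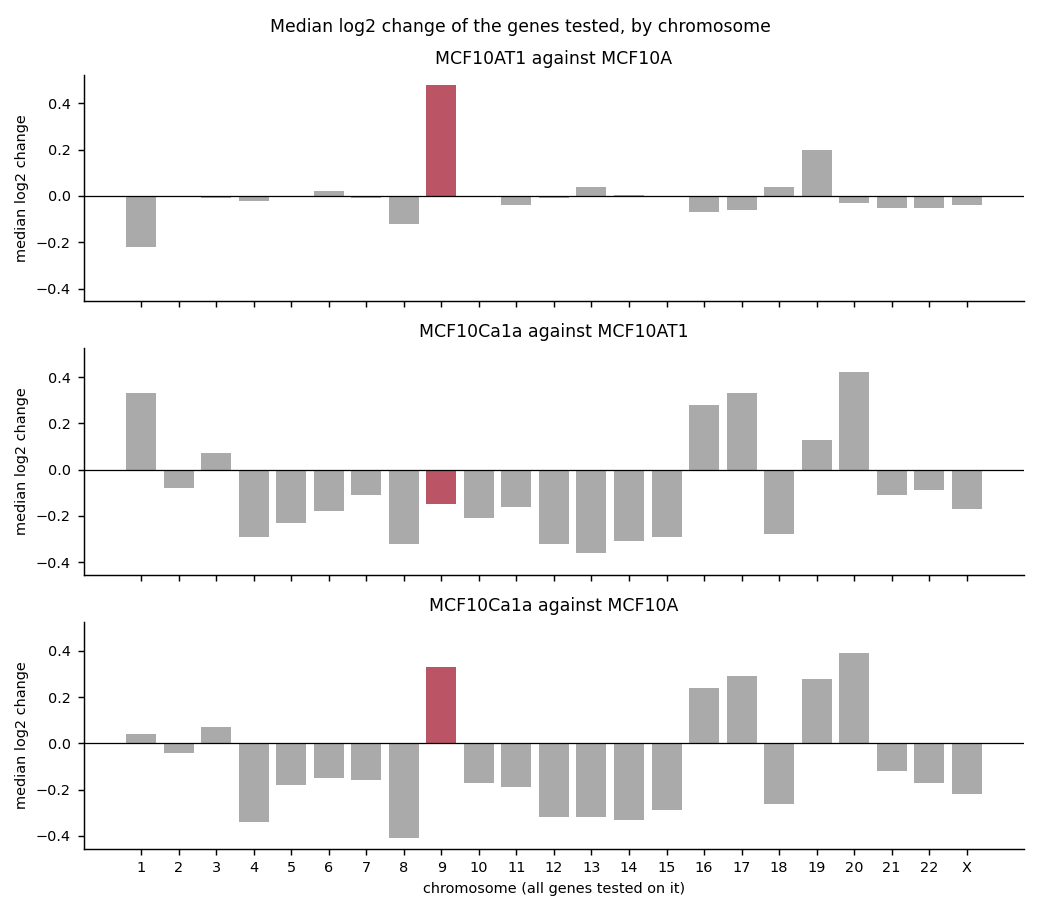
Median log2 change over all genes tested on each chromosome, for the 3 comparisons, with chromosome 9 in red. It stands at 0.48 in MCF10AT1 and 0.33 in MCF10Ca1a against MCF10A, and at -0.15 in MCF10Ca1a against MCF10AT1.

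Windows of 10 Mb with at least 5 genes tested show how the change runs along the chromosome. In MCF10AT1 against MCF10A every window median was above 0, from 0.34 between 130 and 140 Mb to 1.12 between 40 and 50 Mb, a window of 18 genes with no member. In MCF10Ca1a the window from 80 to 90 Mb was the exception to positive medians, at -0.32 against MCF10A. The members TLE1, UBQLN1 and GOLM1 lie in that window. Other regions moved differently: genes of 1q above 200 Mb had a median of -0.94 in MCF10AT1 against MCF10A, and genes of 20q had -0.02.

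Single genes near the members ranged far from those medians. TLR4 (log2 6.92) and SVEP1 (-4.58) are examples from genes chosen by the size of their change in MCF10AT1 against MCF10A. C9orf64 (6.99) and WNK2 (5.93) also rose there, and TNFSF15 (-3.52) and GLDC (-3.42) also fell. TLR4, an innate immune receptor, had 19, 21 and 27 counts in MCF10A. MCF10AT1 had 2743, 2865 and 2399 counts of it, and MCF10Ca1a 586, 568 and 632. SVEP1, an extracellular matrix gene, had 1446, 1376 and 1445 counts, then 56, 57 and 62, then 82, 79 and 106. At 9p21, the cell cycle inhibitor genes CDKN2A and CDKN2B were at 0 counts in all 9 libraries. Their neighbour MTAP, a purine salvage enzyme, had 3, 4 and 0 counts in MCF10A. It had 16, 19 and 13 counts in MCF10AT1, and MCF10Ca1a had 165, 147 and 158.

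Promoter sequences are shown for 3 members whose levels took different courses: HSPA5 rose in MCF10Ca1a, KLF4 was highest in MCF10AT1, and PTGR1 was lowest in MCF10Ca1a. Each is the 250 bases before the RefSeq start on GRCh38.p14, 5′ to 3′ on the minus strand, at chr9:125241344-125241593 for HSPA5, chr9:107489770-107490019 for KLF4 and chr9:111599432-111599681 for PTGR1. Capitals mark the ER stress element match in HSPA5 and the GC boxes in KLF4; PTGR1 has no capitals because none of the motifs searched was found. HSPA5 held 4 CCAAT boxes, of which 1 is the start of the capitalised element. Its other CCAAT boxes and its 2 GC boxes, and the 1 E box of KLF4, are in lower case. The windows of KLF4 and PTGR1 lie inside the bounds that GENCODE 29 gives these genes, since its outermost starts differ from RefSeq's.
HSPA5: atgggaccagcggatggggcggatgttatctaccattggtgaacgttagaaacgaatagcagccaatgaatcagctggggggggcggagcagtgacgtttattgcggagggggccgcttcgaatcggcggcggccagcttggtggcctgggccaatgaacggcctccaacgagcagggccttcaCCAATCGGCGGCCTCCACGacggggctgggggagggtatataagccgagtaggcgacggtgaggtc
KLF4: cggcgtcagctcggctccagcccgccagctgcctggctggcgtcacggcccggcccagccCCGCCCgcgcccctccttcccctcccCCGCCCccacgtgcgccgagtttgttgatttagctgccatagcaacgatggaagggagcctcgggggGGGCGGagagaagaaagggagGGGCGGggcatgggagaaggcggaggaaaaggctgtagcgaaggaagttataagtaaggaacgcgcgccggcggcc
PTGR1: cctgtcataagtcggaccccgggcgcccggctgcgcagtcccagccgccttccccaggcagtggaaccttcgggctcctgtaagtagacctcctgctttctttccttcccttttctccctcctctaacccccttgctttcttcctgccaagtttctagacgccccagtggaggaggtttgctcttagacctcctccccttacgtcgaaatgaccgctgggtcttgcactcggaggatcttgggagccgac

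These promoters and motifs were chosen after an exploratory search of 14 members' promoters. The motifs, each searched on both strands, were the GC box GGGCGG, the antioxidant response element TGACNNNGC, the CCAAT box CCAAT, the TATA box TATAAA, the E box CACGTG and the ER stress element, which is CCAAT, any 9 bases and CCACG and so itself contains a CCAAT box. Of all 35116 RefSeq promoters of this length, 42.6% held a GC box, 10.9% an antioxidant response element, 32.0% a CCAAT box, 10.7% a TATA box, 6.34% an E box and 0.074% an ER stress element. Promoters were found for 55 members (103 promoters), with a median GC content of 62.4% against 58.0% over all promoters. In the same order of motifs, 64.1%, 11.7%, 27.2%, 5.83%, 6.8% and 0.971% of them held a match, the last being HSPA5 alone. A match of letters describes the sequence only.

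The 12 signalling members come first. CD274, the ligand of the T cell checkpoint receptor PD-1, lies on 9p at chr9:5450503-5470566 and had 4.9, 4.97 and 4.33 CPM (counts relative to library size, scaled by TMM) in MCF10A. It had 9.51, 10.5 and 9.14 CPM in MCF10AT1 and 20.6, 20.9 and 21.7 CPM in MCF10Ca1a. The 3 lines did not overlap, and each derived line stood above the line before it. In MCF10Ca1a CD274 rose 4.45-fold over MCF10A (log2 2.15, standard error (SE) 0.0787, adjusted p = 9.22e-12, quasi-likelihood test of edgeR, Benjamini-Hochberg adjusted over all genes).

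JAK2, a cytokine receptor kinase less than 1 Mb from CD274, had 9.33, 8.7 and 8.45 CPM in MCF10A, 13.2, 14.3 and 12.5 in MCF10AT1, then 12.1, 11.3 and 12.0 in MCF10Ca1a. All libraries of the derived lines lay above all of MCF10A. The rise in MCF10Ca1a was 1.34-fold (log2 0.42, SE 0.0735, adjusted p = 0.000123 by edgeR's quasi-likelihood test). Of the related kinases on other chromosomes, TYK2 was called lower in MCF10AT1 against MCF10A with a log2 change of -0.65, and JAK1 had -0.14 and was not called. In MCF10Ca1a against MCF10A JAK1 rose with a log2 change of 1.14 and TYK2 fell by 0.24. STAT3, a transcription factor that these kinases activate, rose there with a log2 change of 1.31.

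PTCH1, the Hedgehog receptor, was low in every library, at 2.09, 2.52 and 1.86 CPM in MCF10A. It stood at 3.97, 4.12 and 4.56 CPM in MCF10AT1 and at 0.727, 0.446 and 0.846 CPM in MCF10Ca1a. Its highest libraries were those of MCF10AT1 and its lowest those of MCF10Ca1a, with no overlap. PTCH1 fell 3.18-fold in MCF10Ca1a against MCF10A (log2 -1.67, SE 0.202, adjusted p = 3.41e-06 by edgeR's quasi-likelihood test). The Hedgehog transcription factor gene GLI3 also fell, with a log2 change of -1.92, while SUFU, an inhibitor of the pathway, rose by 0.44. GLI2 was near 0 in every line, and SMO did not pass the filter.

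SYK, an immune receptor kinase, had 9.59, 8.84 and 8.77 CPM in MCF10A, 12.2, 13.3 and 12.5 in MCF10AT1, then 6.96, 7.55 and 7.14 in MCF10Ca1a. It fell on the count scale in MCF10Ca1a against MCF10A (log2 -0.33, SE 0.0744, adjusted p = 0.00102 by edgeR's quasi-likelihood test). On log2(TPM + 1) the same difference was 0.11 with limma's adjusted p = 0.426, and on length-scaled counts it was 0.01, so its direction depends on the deposited table.

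TSC1, a subunit of the complex that restrains mTORC1, had 29.3, 29 and 30.4 CPM in MCF10A, 36.7, 35.0 and 40.2 in MCF10AT1, then 59, 60.1 and 59.3 in MCF10Ca1a. The lines did not overlap, and in MCF10Ca1a TSC1 rose 2.01-fold (log2 1.01, SE 0.0558, adjusted p = 7.2e-10 by edgeR's quasi-likelihood test). Its partners TSC2 and TBC1D7 rose there too, with log2 changes of 0.59 and 0.64. In MCF10AT1 against MCF10A the value for TSC1 was 0.34 on counts and -0.02 on log2(TPM + 1).

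ABL1, a tyrosine kinase, had 105, 87.7 and 83.1 CPM in MCF10A, 99.2, 99.0 and 104 in MCF10AT1, then 109, 107 and 109 in MCF10Ca1a. The MCF10A libraries spread more than the others, and replicate 1 lay above every MCF10AT1 and below every MCF10Ca1a library. ABL1 rose 1.18-fold in MCF10Ca1a (log2 0.24, SE 0.0728, adjusted p = 0.00879 by edgeR's quasi-likelihood test), a call lost without MCF10A replicate 2 (adjusted p = 0.0596) and on both scaled count tables. Its paralog ABL2 on chromosome 1 rose with a log2 change of 2.41.

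Of the 12 signalling members, 7 rose (58.3%) and 5 fell (41.7%) in MCF10Ca1a against MCF10A, beside 39.0% and 41.9% of all genes tested. These 2 shares over all genes are the background for every count by role in this comparison, and none of those counts was tested against it. RRAGA, a Rag GTPase of amino acid sensing, and RALGDS, an exchange factor for Ral proteins, were among those that rose, with log2 changes of 1.09 and 1.42. The 5 that fell were PTCH1, SYK, GNAQ (-0.81), NINJ1 (-0.54) and TRIM14 (-0.81). GNAQ encodes a G protein subunit, and TRIM14 acts in antiviral signalling.

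Among 14 transcription and chromatin members, 9 rose, 0 fell and 5 did not pass the test in MCF10Ca1a against MCF10A (39.0% and 41.9% of all genes rose and fell). NFIB, a transcription factor of the nuclear factor I family, had 63.0, 57.7 and 57.0 CPM in MCF10A, 116, 111 and 117 in MCF10AT1, then 169, 174 and 173 in MCF10Ca1a. It rose 2.9-fold in MCF10Ca1a (log2 1.54, SE 0.0535, adjusted p = 5.69e-12 by edgeR's quasi-likelihood test). Its relatives on other chromosomes moved less: NFIA rose by 0.35, NFIX fell by 0.26, and NFIC had a log2 change of -0.05 that did not pass the test.

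KLF4, a zinc finger factor of epithelial differentiation whose promoter is printed above, had 12.5, 12.7 and 12.3 CPM in MCF10A. MCF10AT1 had 30.1, 33.0 and 31.9 CPM, above every other library, and MCF10Ca1a had 11, 11.8 and 11.9 CPM. In MCF10Ca1a against MCF10A its log2 change was -0.11 (SE 0.0607), which did not pass the test (adjusted p = 0.109, edgeR's quasi-likelihood test) except with no filter on low counts, where it was called lower. On all 3 TPM settings the value for KLF4 was 0.06, in the other direction and not called. UHRF2 (0.04), MLLT3 (0.21), TLE1 (-0.07) and BRD3 (0.01) did not pass the test on counts either, although UHRF2 and MLLT3 did under all 3 TPM settings and MLLT3 also on both scaled count tables and without MCF10Ca1a replicate 1. The other risers included NFX1 (1.03), KDM4C (0.98), a histone demethylase, and RXRA (0.81), a nuclear receptor. SET, a histone chaperone, rose by 0.19, a call lost without MCF10A replicate 2 (adjusted p = 0.0675, edgeR's quasi-likelihood test) and with no filter on low counts. The rises of TLE4 (0.28) and PSIP1 (0.46) did not pass on either scaled count table, nor that of TLE4 under the 3 TPM settings.

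**Figure D3:**
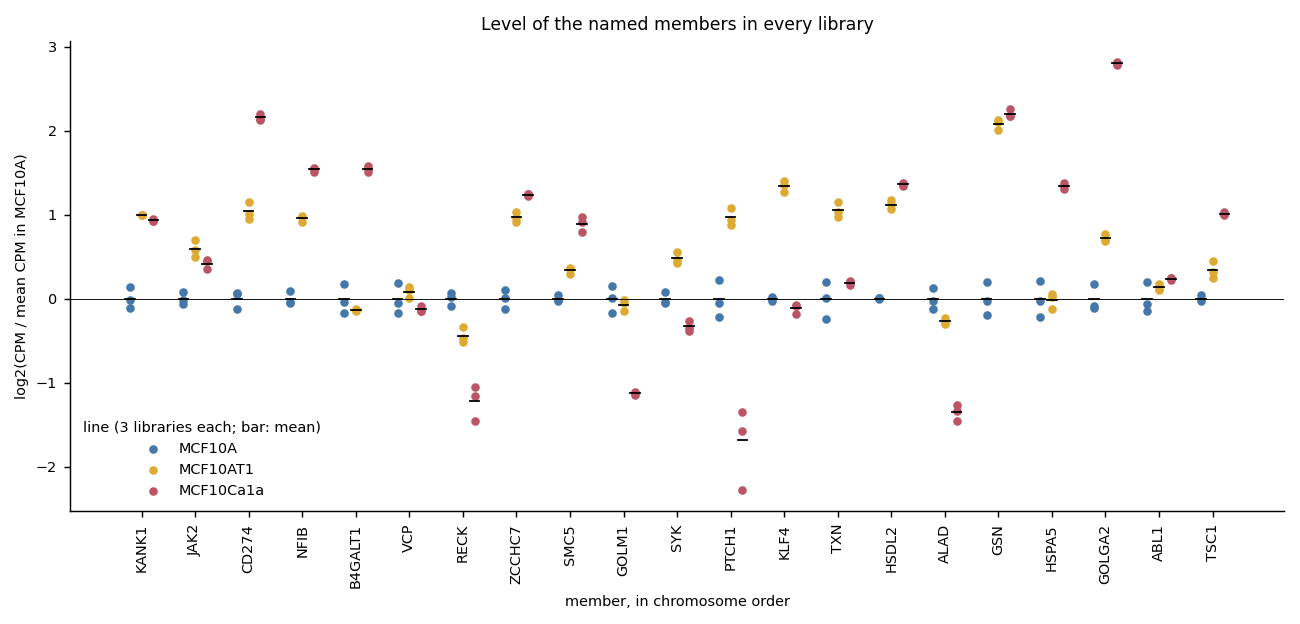
Level of 21 members in every library, as log2 of CPM over the mean CPM of MCF10A; points are libraries and bars line means. CD274, NFIB, GSN and GOLGA2 lie above MCF10A in both derived lines, while KLF4 and TXN are highest in MCF10AT1.

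All 3 members of cell division and chromosome maintenance rose in MCF10Ca1a, where 39.0% of all genes did. SMC5, the core of the SMC5/6 complex, had 87.2, 84.0 and 83.1 CPM in MCF10A, 109, 108 and 104 in MCF10AT1, then 159, 166 and 147 in MCF10Ca1a. It rose 1.86-fold (log2 0.89, SE 0.0546, adjusted p = 2.1e-09 by edgeR's quasi-likelihood test). Of its 4 partners, NSMCE1 rose by 0.71, NSMCE3 and NSMCE4A fell with log2 changes of -1.57 and -2.05, and SMC6 had 0.10, which did not pass the test. HAUS6, of the augmin complex that amplifies spindle microtubules, rose with a log2 change of 0.72. Of its 7 partners 2 rose and 5 fell, beside 39.0% and 41.9% of all genes. CDC14B, a phosphatase, rose by 0.23, and that call was lost without MCF10A replicate 2, MCF10A replicate 3 or MCF10Ca1a replicate 3 (highest adjusted p = 0.11, edgeR's quasi-likelihood test), and with no filter on low counts.

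GSN, which encodes the actin-severing protein gelsolin (chr9:121207794-121332843), was the cytoskeletal member with the largest difference. Its levels were 39.0, 33.3 and 29.8 CPM in MCF10A, 146, 148 and 137 in MCF10AT1, then 154, 153 and 162 in MCF10Ca1a. Every library of the derived lines was above every MCF10A library. GSN rose 4.59-fold in MCF10Ca1a (log2 2.20, SE 0.0822, adjusted p = 1.16e-11 by edgeR's quasi-likelihood test). The gene overlaps RAB14 on the other strand; the library kit is stranded, but whether the quantification used strand is not given in the sources used here.

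KANK1, an adaptor between talin and the cell cortex, had 113, 102 and 95.2 CPM in MCF10A, 206, 205 and 205 in MCF10AT1, then 198, 196 and 196 in MCF10Ca1a. The levels of both derived lines lay well above MCF10A, and KANK1 rose 1.91-fold in MCF10Ca1a (log2 0.93, SE 0.0599, adjusted p = 3.72e-09 by edgeR's quasi-likelihood test). RECK, a membrane-anchored inhibitor of matrix metalloproteinases, went the other way, at 4.27, 4.14 and 3.83 CPM, then 2.85, 3.23 and 2.96, then 1.96, 1.49 and 1.83. It fell 2.31-fold in MCF10Ca1a (log2 -1.21, SE 0.128, adjusted p = 8.1e-07 by edgeR's quasi-likelihood test). On the TPM scale RECK did not separate MCF10Ca1a from MCF10AT1, with means of 2.06 and 2.02 TPM. TLN1, the integrin-linked talin, rose by 0.29, and that call was lost without MCF10A replicate 2 (adjusted p = 0.0621, edgeR's quasi-likelihood test).

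Of 10 members in protein folding and turnover, 6 rose, 1 (STOML2, -0.38) fell and 3 did not pass the test in MCF10Ca1a, beside 39.0% of all genes rising and 41.9% falling. HSPA5, the main chaperone of the endoplasmic reticulum, whose promoter is printed above, had 877, 744 and 649 CPM in MCF10A and 787, 767 and 696 in MCF10AT1, which overlapped. MCF10Ca1a had 1870, 1920 and 1960 CPM, above all others, a 2.53-fold rise over MCF10A (log2 1.34, SE 0.0931, adjusted p = 8.39e-09 by edgeR's quasi-likelihood test). VCP, a segregase that extracts ubiquitylated proteins, had 602, 510 and 468 CPM, then 580, 566 and 531, then 477, 475 and 496. MCF10A overlapped both other lines, while every MCF10AT1 library lay above every MCF10Ca1a library. Its log2 change in MCF10Ca1a against MCF10A was -0.13 (SE 0.0803, adjusted p = 0.164, edgeR's quasi-likelihood test), called lower with no filter on low counts and without MCF10A replicate 3 (adjusted p = 0.0109). On all 3 TPM settings VCP stood at 0.06 against MCF10A and 0.09 against MCF10AT1, neither called. ERP44 (0.81), which retains proteins in the secretory pathway, and SEC61B (0.46), a translocon subunit, rose.

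The proteasome members PSMB7 and PSMD5 can be set beside 30 other subunit genes. PSMB7 rose in MCF10Ca1a with a log2 change of 0.88, while PSMD5 had 0.11, which did not pass the test. PSMD5 did pass, as higher, with DESeq2 size factors, the DESeq2 Wald test, TMM set without chromosome 9 genes, both scaled count tables, the 2 lines alone, all 3 TPM settings and without MCF10A replicate 1. Of the other subunits 11 rose, 11 fell and 8 did not pass the test (39.0% of all genes rose and 41.9% fell), with a median of -0.01. In MCF10AT1 against MCF10A, 12 of the 30 subunits were called higher (40.0%) and 11 lower (36.7%), beside 29.8% and 31.8% of all genes tested. Their median was 0.04, beside 0.72 for PSMB7 and 0.17 for PSMD5.

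**Figure D4:**
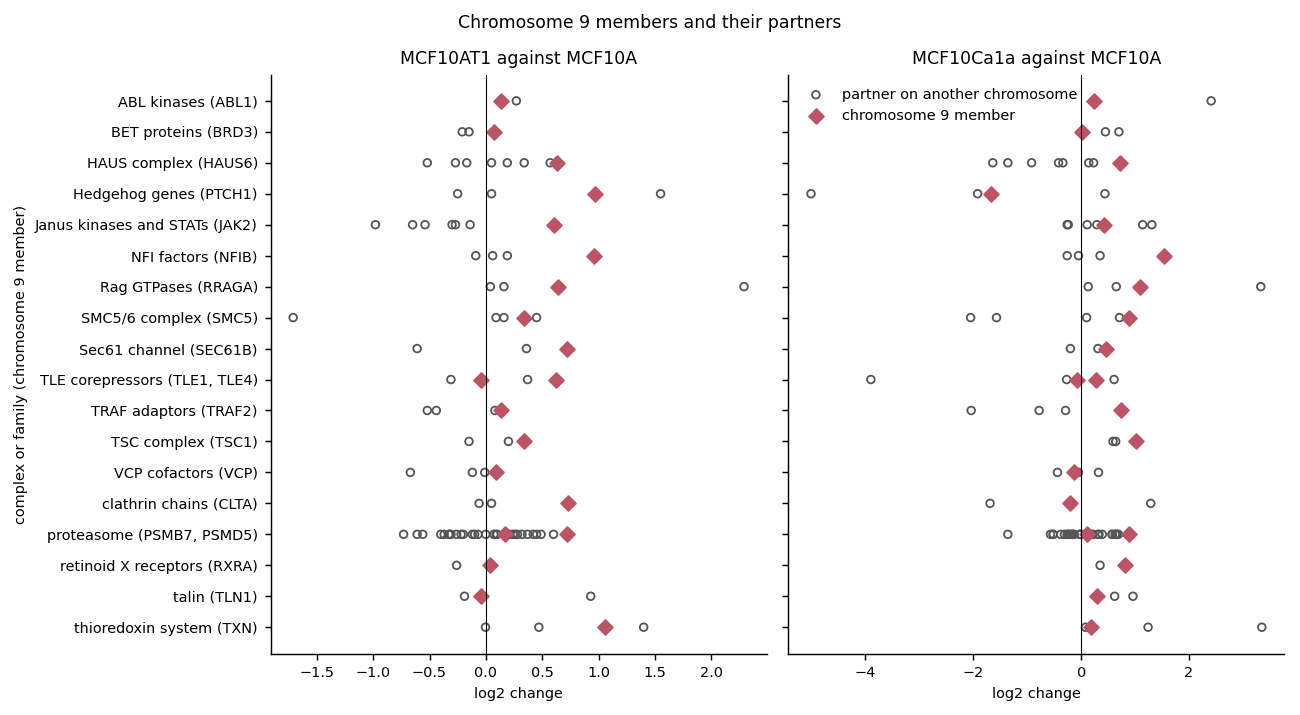
Log2 change of chromosome 9 members (red diamonds) and of their listed partners on other chromosomes (open circles), by complex or family, for MCF10AT1 and MCF10Ca1a against MCF10A. In MCF10AT1 the 80 partners tested had a median of -0.01, with 28 called higher and 29 lower, beside 29.8% and 31.8% of all genes tested.

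Over all 80 partner genes tested of 81 listed, 28 were called higher, 29 lower and 23 were not called in MCF10AT1 against MCF10A, beside 29.8% and 31.8% of all genes tested. In MCF10Ca1a against MCF10A, 35 rose (43.8%), 29 fell (36.2%) and 16 did not pass the test, beside 39.0% and 41.9% of all genes, with a median of 0.09.

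Of 8 Golgi, trafficking and sugar members, 6 rose and 2 fell in MCF10Ca1a, beside 39.0% and 41.9% of all genes. GOLGA2, the Golgi matrix protein GM130, had 45.2, 37.7 and 36.8 CPM in MCF10A, 64.7, 64.3 and 68.1 in MCF10AT1, then 279, 275 and 281 in MCF10Ca1a. The lines did not overlap, and GOLGA2 rose 6.98-fold in MCF10Ca1a (log2 2.80, SE 0.0735, adjusted p = 3.7e-13 by edgeR's quasi-likelihood test). GOLGA2 and SET have near copies elsewhere in the genome that can share reads with them, so their levels are less certain. B4GALT1, a galactosyltransferase of the Golgi, had 343, 295 and 269 CPM in MCF10A, 279, 274 and 277 in MCF10AT1, then 880, 865 and 908 in MCF10Ca1a. It was not separate in MCF10AT1, although it gained a call against MCF10A on log2(TPM + 0.1) and without MCF10A replicate 3. B4GALT1 rose 2.92-fold in MCF10Ca1a (log2 1.55, SE 0.0769, adjusted p = 2.25e-10 by edgeR's quasi-likelihood test).

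GOLM1, a Golgi membrane protein, had 138, 125 and 110 CPM in MCF10A, 123, 120 and 112 in MCF10AT1, then 56.7, 56.1 and 57.5 in MCF10Ca1a. It fell 2.19-fold in MCF10Ca1a (log2 -1.13, SE 0.0723, adjusted p = 3.41e-09 by edgeR's quasi-likelihood test). CLTA, a clathrin light chain, fell by 0.21, where CLTB fell by 1.69 and the heavy chain CLTC rose by 1.29. UGCG, which makes glucosylceramide, and SURF4, a cargo receptor, rose with log2 changes of 1.02 and 0.92.

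Of the 5 metabolic members, 2 rose, 2 fell and 1 did not pass the test, beside 39.0% and 41.9% of all genes. PTGR1, a reductase of prostaglandins and aldehydes, was singled out after its values were seen: it had 15.4, 15.9 and 15.3 CPM in MCF10A, 26.5, 26.9 and 23.2 in MCF10AT1, then 1.01, 1.04 and 0.733 in MCF10Ca1a. It fell 16.8-fold in MCF10Ca1a (log2 -4.07, SE 0.114, adjusted p = 6.83e-13 by edgeR's quasi-likelihood test). In such bulk RNA, fewer cells with a transcript and less of it per cell cannot be told apart. TXN, the thioredoxin gene, had the highest mean of any member in every line, at 1640, 3050 and 2010 TPM. Its CPM were 286, 342 and 389 in MCF10A, 665, 695 and 754 in MCF10AT1, then 379, 389 and 392 in MCF10Ca1a, and its log2 change in MCF10Ca1a against MCF10A was 0.19 (SE 0.0908, adjusted p = 0.0674, edgeR's quasi-likelihood test). That change passed the test with DESeq2 size factors, the DESeq2 Wald test, TMM factors set without chromosome 9 genes, the replicate block and all 3 TPM settings, and without MCF10A replicate 3. Among its partners, TXNRD1 rose by 1.24 and TXNIP by 3.35, and TXN2 had 0.08, which did not pass the test.

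HSDL2, a peroxisomal dehydrogenase-like protein, had 55.8, 55.4 and 55.8 CPM in MCF10A, 122, 126 and 117 in MCF10AT1, then 141, 145 and 144 in MCF10Ca1a. The lines did not overlap, and HSDL2 rose 2.58-fold in MCF10Ca1a (log2 1.37, SE 0.0483, adjusted p = 6.57e-12 by edgeR's quasi-likelihood test). ALAD, a heme synthesis enzyme, had 23.5, 21.1 and 19.8 CPM, then 18.3, 17.5 and 17.8, then 7.85, 8.5 and 8.97. It fell 2.54-fold in MCF10Ca1a (log2 -1.35, SE 0.0766, adjusted p = 9.67e-10 by edgeR's quasi-likelihood test). PLIN2, a lipid droplet coat gene, had 2, 0 and 0 counts in MCF10A. MCF10AT1 had 8, 4 and 4, and MCF10Ca1a had 15, 12 and 23. PLIN2 passed the filter on low counts only through MCF10Ca1a, the line where it is highest, so its calls are not read as a result. They remain in the counts of all members and of the metabolic members. With 2 counts in all of MCF10A its fitted change depends on the prior count and is not given.

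The 3 RNA processing members all rose in MCF10Ca1a, where 39.0% of all genes did. ZCCHC7, a subunit of the TRAMP complex of nuclear RNA surveillance, had 26.5, 29 and 31.1 CPM in MCF10A, 56.1, 59.3 and 54.2 in MCF10AT1, then 68.8, 67.2 and 68.3 in MCF10Ca1a. It rose 2.36-fold (log2 1.24, SE 0.0611, adjusted p = 2.11e-10 by edgeR's quasi-likelihood test). RCL1, of ribosome assembly, and PRPF4, a spliceosomal protein, rose with log2 changes of 0.55 and 0.20, the call of PRPF4 being lost with no filter on low counts.

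Transcript tables show how the gene changes were spread. In 57 members, 232 transcripts reached a mean of 1 TPM in some line. In MCF10AT1 against MCF10A, 83 had all 3 libraries above all 3 of MCF10A and 7 had all 3 below, where the shares over all transcripts of that level were 17.1% and 27.1%. In MCF10Ca1a against MCF10A the counts were 126 and 27, beside 35.1% and 29.3%.

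The share of a gene's TPM held by a transcript differed by at least 20 points between line means for 10 of the 232 transcripts, in 7 members. This limit was set after the shares were seen, so they are described without a test, and the uncertainty of assigning reads among transcripts was not used here. ABL1 had the widest difference: transcript ENST00000318560.6 held 58.3% ± 2.19 (SD, n = 3) in MCF10A, 51.8% ± 4.45 in MCF10AT1 and 15.8% ± 2.2 in MCF10Ca1a. ENST00000372348.9 held 41.4% ± 1.74, 46.9% ± 2.31 and 78.8% ± 2.35. The total of ABL1 changed little beside these shares. In TLN1, ENST00000314888.10 held 50.6% ± 1.39, 39.8% ± 2.17 and 18.7% ± 5.13, and in SET, ENST00000686840.1 held 48.8% ± 1.14, 44.9% ± 1.12 and 21.5% ± 1.07. In TSC1, ENST00000645150.1 was listed at 0 in 2 of the 3 MCF10AT1 libraries and held 16.7% in the other.

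**Figure D5:**
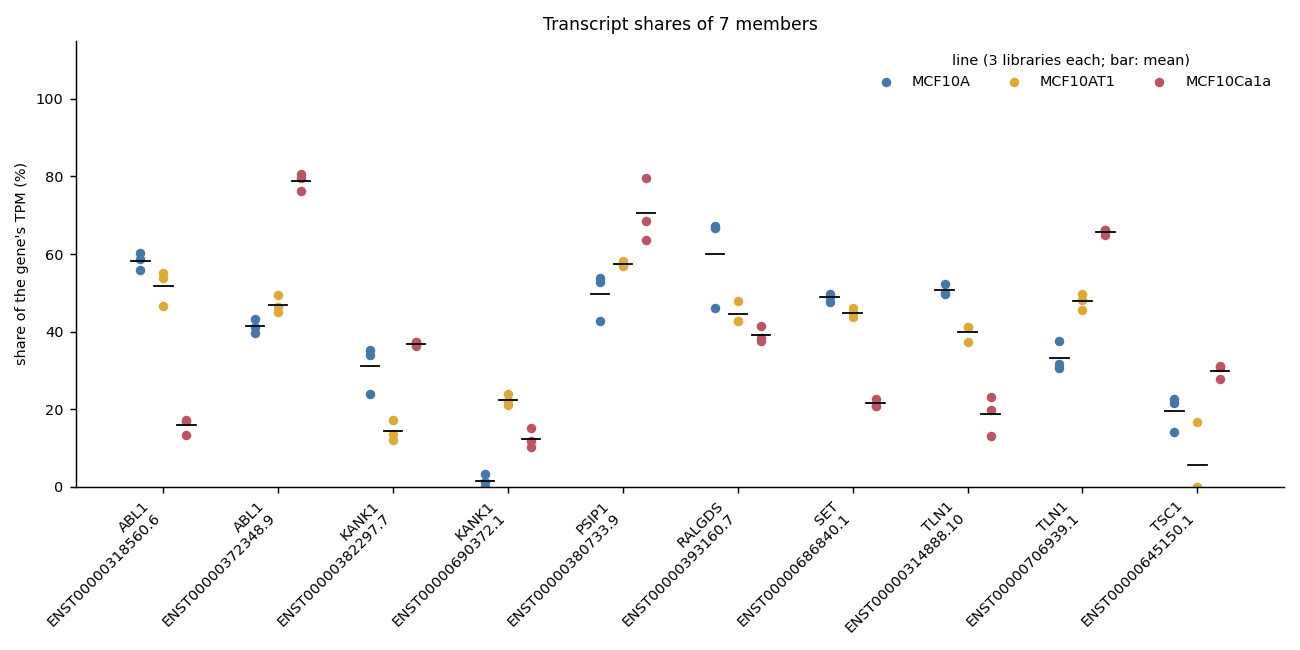
Share of a gene's TPM (percent) held by the 10 transcripts whose line means differ by at least 20 points, in 7 members; points are libraries and bars line means. For all 10 the MCF10Ca1a points lie apart from those of both other lines, and for KANK1 ENST00000690372.1 they lie between them.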

How the data were processed

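Polyadenylated RNA of 3 lines was sequenced in 3 libraries each. Per the submitters' processing notes, Salmon and hg38 were used; the version and the annotation release are not given in the sources used here. The authors deposited estimated counts and TPM per gene and transcript, with 2 further tables of scaled counts.

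The deposited estimated counts were rounded and tested with edgeR 4.0.16 (quasi-likelihood, TMM, filterByExpr with minimum count 10 and total 15, all 9 libraries in 1 fit, R 4.3.3) with Benjamini-Hochberg adjustment at 0.05 over 17910 genes. Each SE came from the log2 change and its F statistic. The fit was tried on simulated counts with 200 genes changed in MCF10AT1 only, far fewer than were called in the real data. In MCF10AT1 against MCF10A it recovered 82 of 100 changes of log2 1 and 56 of 100 smaller ones, with 12 false calls. Positions came from GENCODE 29, matched for 92.9% of genes. The members and lists were chosen with earlier results of these data known. Values in every library are given, in each arm, for the 4 members with the highest and the 2 with the lowest (most negative) log2 change in MCF10AT1, for the called member with the largest change in MCF10Ca1a of each role group, and for 11 members listed by name; PTGR1 was added after its values were seen. Alternatives were limma 3.58.1 on log2(TPM + 1) and log2(TPM + 0.1), DESeq2 1.42.0, other count tables, no filter, a replicate block and leaving out each library.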

Additional observations from a re-analysis of the deposited data

How the results depend on the processing

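The calls and the median of the 59 members were recomputed under 20 alternatives, with values kept for 22 of them. PLIN2 gave no value in MCF10AT1 against MCF10A with the 2 lines alone, and results by arm, window, chromosome, role, partner and transcript were not recomputed. A median was taken as moved when it shifted by more than 0.0453, the SD between replicates of the members' median level. The count of members called stayed within 1.5 times in all of them. Leaving out each library in turn gave counts of 43 to 52 (MCF10AT1 against MCF10A), 43 to 50 (MCF10Ca1a against MCF10AT1) and 46 to 52 (MCF10Ca1a against MCF10A), and medians of 0.46 to 0.51, 0.05 to 0.08 and 0.44 to 0.52, the last without MCF10A replicate 1. Without that library CDC14B, ABL1, TRAF2, VCP, BRD3 and RXRA gained a call in MCF10AT1, and PSMD5 and UBAP2 in MCF10Ca1a, each against MCF10A, and no call was lost.

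On log2(TPM + 1), log2(TPM + 0.1) and log2(TPM + 1) with no filter, the medians were 0.29, 0.35 and 0.29 for MCF10AT1 against MCF10A, 0.32, 0.36 and 0.32 for MCF10Ca1a against MCF10AT1, and 0.61, 0.62 and 0.61 for MCF10Ca1a against MCF10A. On log2(TPM + 0.1) the median of all genes itself stood at -0.11, 0.21 and 0.10. MCF10Ca1a against MCF10AT1 gave 0.12 with DESeq2 size factors and with the DESeq2 Wald test, and reversed to -0.02 with no filter on counts, where MCF10Ca1a against MCF10A gave 0.38. The cause was not tested.

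Reversed values of single members, in the order of the 3 TPM settings above, were -0.0036, -0.003 and -0.0036 (ABL1), -0.02 in each (TSC1) and -0.04 in each (VCP) for MCF10AT1 against MCF10A. For MCF10Ca1a against MCF10AT1 they were 0.14, 0.17 and 0.14 (JAK2), 0.17, 0.18 and 0.17 (KANK1), 0.01, 0.0012 and 0.01 (RECK) and 0.09 in each (VCP). MLLT3, called lower there on counts (-0.32, edgeR's adjusted p = 0.0189), was called higher on the TPM scale, at 0.26, 0.37 and 0.26 (limma's adjusted p = 0.01, 0.0254 and 0.0345), the one member called in opposite directions. For MCF10Ca1a against MCF10A they were 0.06 in each (KLF4), 0.11, 0.14 and 0.11 (SYK, with 0.01 on length-scaled and on scaled counts) and 0.06 in each (VCP). In MCF10AT1 against MCF10A, leaving out each library gave GOLM1 -0.15 to 0.01 and HSPA5 -0.11 to 0.11, both highest without MCF10A replicate 1, and HSPA5 was 0.04 without MCF10AT1 replicate 3 and 0.01 with TMM set without chromosome 9 genes or with the 2 lines alone.

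Same-numbered libraries showed no more shared deviation (r from -0.0597 to 0.0451) than the other pairs between lines (-0.0742 to 0.0955). No pairing by number was seen, so the main fit has none, and whether libraries share a batch was not tested. With the replicate block the counts called were 46, 47 and 51 and the medians 0.48, 0.07 and 0.46. Depth limits PLIN2 and PTCH1 most.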
